A study of Mus musculus with 15 samples.

Results

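Near-lifelong every-other-day feeding (EOD) was compared with ad libitum feeding (AL) in the whole brain of old mice by RNA-seq. The comparison holds 4 old EOD and 4 old AL mice, chosen by their labels, which are 8 of the 15 mice of the series. The other 7 mice, used below only to ask whether the diet difference depends on age, were 4 young AL and 3 young EOD mice of 3 months. Every mouse was a wildtype male C57BL/6J, and the labels give 24 months as the age of the old mice. EOD mice had free access to chow for 24 h followed by 24 h without food, starting at 2 months of age, whereas AL mice had the same chow at all times, and both were housed in groups. Old mice had thus been on the regimen for most of their life and young mice only for a short time, so that age and the length of the regimen cannot be told apart. Each library was made from the whole brain of 1 mouse. By the study's general rule, samples and measurements were taken on the morning that followed a day with food, and its methods name no exception for the brains.

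In the old mammalian brain, microglia (its resident immune cells) and astrocytes are known to carry more transcripts of the complement cascade, of lysosomal and antigen-presenting proteins and of the intermediate filament Gfap. Fasting is known to raise circulating glucocorticoids and fatty acids, and the receptors that sense them (the glucocorticoid receptor, PPARs and FOXO factors downstream of insulin) induce genes such as the metallothioneins Mt1 and Mt2, the lipid droplet protein Plin4 and the lipase inhibitor Angptl4. In whole-brain RNA, fewer cells of a type and less RNA per cell cannot be told apart.

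Total counts ranged from 5198748 to 11911721 in old AL mice and from 8653827 to 11977663 in old EOD mice. The headers name 3 sequencing lanes, each with old mice of both groups. Young AL mice were on all 3 lanes but young EOD mice on lanes 1 and 2 only, and lane was not fitted in the comparison between ages. The brain was represented as labelled, with Snap25 (a synaptic protein of neurons) between 3512 and 4144 CPM (counts scaled to the library total) over the 8 mice. Old AL mouse 4, however, also carried pituitary transcripts. Its growth hormone (Gh) level was 890 CPM, against 0.125, 0.395 and 15.05 CPM in old AL mice 1, 2 and 3 and at most 0.571 CPM in the 4 old EOD mice. The same mouse had 72.6 CPM of prolactin (Prl) and 49.9 CPM of Cga, the common subunit of the glycoprotein hormones, and no other old mouse exceeded 1.14 CPM for either gene. Old AL mouse 3 came next for all 3 genes, and it had the lowest total count. Lcn2, an iron-sequestering protein of acute inflammation, stood at 12.2 and 8.93 CPM in old AL mice 3 and 4 and at no more than 1.26 CPM in the other 6 old mice. Gh, Prl, Cga and Lcn2 were too low in most mice to be tested. The main counts are therefore also given without old AL mouse 4, and without both old AL mouse 3 and old AL mouse 4. Those of gene lists are given so only in part, and list counts in the comparison between ages keep both mice.

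**Figure D1:**
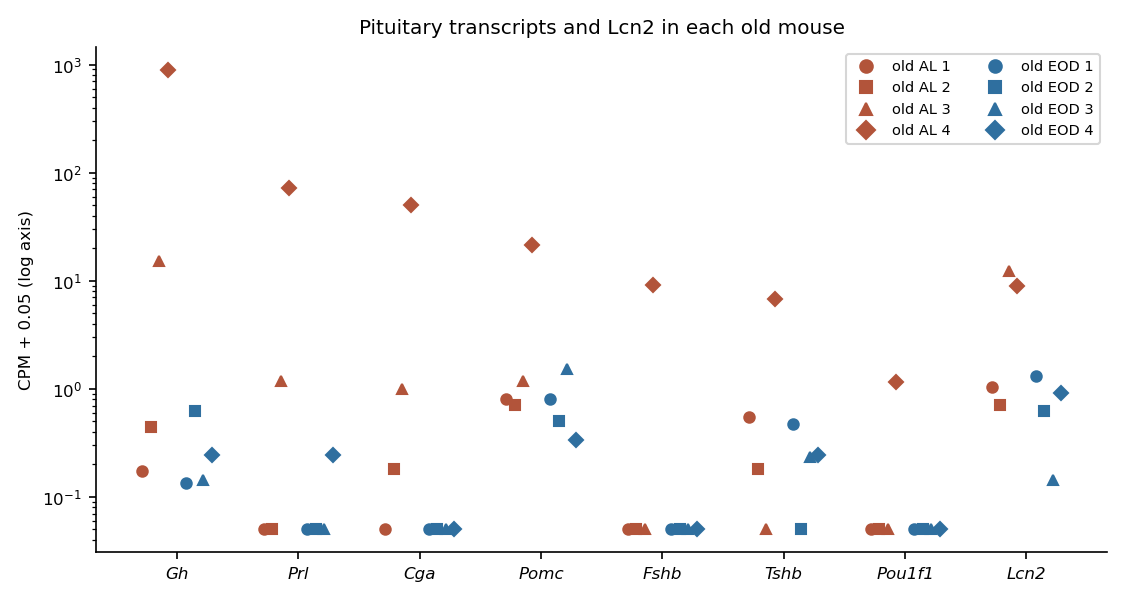
Level of 7 pituitary transcripts and of Lcn2 in each old mouse, as CPM + 0.05 on a log axis, with old AL mice in red, old EOD mice in blue and symbols by mouse number. Old AL mouse 4 lies above all others for every pituitary gene (Gh 890 CPM), and old AL mice 3 and 4 both lie above the other 6 mice for Lcn2.

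With edgeR, no gene passed the study's threshold between the old diet groups, a false discovery rate (FDR) under 0.1. DESeq2, the tool of the study, called 5 genes on the same 8 mice, named below. Of 15164 genes tested with edgeR's quasi-likelihood test, 0 were called (0%), and the smallest Benjamini-Hochberg adjusted p was 0.136, for C4b. At an unadjusted p under 0.05, 388 genes were lower in EOD mice (2.56% of those tested) and 220 were higher (1.45%). Together they were 608 genes (4.01%), below the share of 0.05 that this threshold would mark with no difference at all. Without old AL mouse 4 the lower and higher genes were 390 (2.57%) and 247 (1.63%). Without old AL mice 3 and 4 they were 352 (2.27%) and 182 (1.17%). In either case edgeR called 0 genes. All values below are thus of genes that did not pass edgeR's adjusted test on the 8 mice. DESeq2 on the same 8 mice called 5 genes, all lower in EOD mice, namely C4b (adjusted p = 0.000132), Lyz2 (0.0163), Acot11 (0.0394), Ezr (0.0663) and Gfap (0.0663). The 95% interval of the fold change lay within 1.5-fold in either direction for 11664 genes (76.9%) and within 2-fold for 14278 (94.2%). The median log2 fold change over all tested genes was 0.0026.

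**Figure D2:**
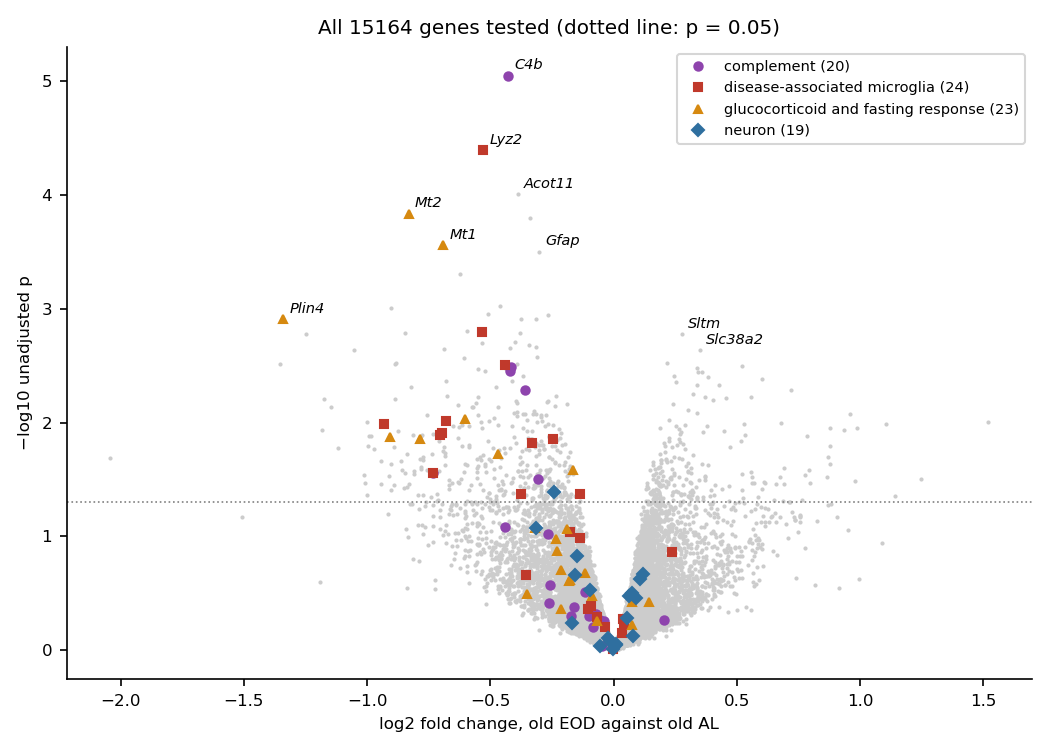
Log2 fold change of old EOD against old AL mice (x axis, negative when lower in EOD) and −log10 of the unadjusted p (y axis) for the 15164 genes tested, with the members of 4 gene lists in colour. The genes with the smallest p lie on the lower side, and C4b and Lyz2 lead them.

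The complement component C4b had the smallest p of all genes. C4b (chromosome 17, 34728380 to 34743882 on GRCm38) encodes the fourth component of the classical complement pathway, which tags targets for removal by phagocytes. Its level was 98.1, 97.1, 103 and 101 CPM in the 4 old AL mice and 72.3, 78.1, 76.4 and 70.4 CPM in the 4 old EOD mice, so that the groups did not overlap. The log2 fold change was −0.43 ± 0.07 (SE, 95% interval −0.57 to −0.28, edgeR adjusted p = 0.136) and stayed between −0.46 and −0.41 when each mouse was left out in turn. The neighbouring paralog C4a, with which reads could be shared, was listed between 0.185 and 0.9996 CPM in the old mice.

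The other complement genes lay mostly on the same side. Of 20 list members tested, 19 were below 0, 6 of them at an unadjusted p under 0.05 (2.56% of all genes), and none was above 0 at that p. Their median log2 fold change was −0.22, against 0.0026 over all genes, and it was −0.14 without old AL mouse 1. The 3 chains of C1q, the recognition molecule that starts the classical pathway and is made by microglia in the brain, behaved alike. C1qa was at 43.4, 47.2, 63.2 and 62.2 CPM in old AL mice and at 37.1, 45.5, 43.8 and 35.6 CPM in old EOD mice (log2 fold change −0.42 ± 0.12). Its high values were thus those of old AL mice 3 and 4, while old AL mouse 1 lay below 2 EOD mice. C1qb and C1qc, named after their values were seen, had log2 fold changes of −0.36 ± 0.11 and −0.42 ± 0.12. Without old AL mice 3 and 4, C1qa had a log2 fold change of −0.16 and C1qb of −0.15, whereas that of C4b was −0.39. The median of the list was then −0.17, with 4 members at an unadjusted p under 0.05 and below 0 (2.27% of all genes). C3, the central component on which all complement pathways converge, had a log2 fold change of −0.26 ± 0.22, which was 0.03 without old AL mouse 1.

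Genes that microglia are known to increase with age and around damage also lay mostly on the lower side. Of 24 tested members of this list, 20 were below 0 and 12 of them had an unadjusted p under 0.05 (2.56% of all genes), with none in the other direction (1.45%). In 8 members all 4 EOD mice lay below all 4 AL mice, a pattern seen in 1.33% of all tested genes. The median log2 fold change was −0.21, which was −0.20 without old AL mouse 4 and −0.13, with 7 members at that p (2.27% of all genes), without old AL mice 3 and 4. Lyz2 (chromosome 10, 117277334 to 117282274) encodes the lysozyme of macrophages and microglia. Lyz2 was at 43.5, 33.7, 39.4 and 36.9 CPM in old AL mice and at 25.1, 27.7, 27.4 and 25.9 CPM in old EOD mice, again without overlap (log2 fold change −0.53 ± 0.10, edgeR adjusted p = 0.308). Its close paralog Lyz1 could share reads with it. Cd68, a lysosomal glycoprotein of phagocytes, had 13.4, 10.3, 10.5 and 10.2 CPM in AL and 7.72, 8.11, 7.42 and 7.33 CPM in EOD mice (log2 fold change −0.54 ± 0.14). The highest of these values, in old AL mouse 1, stood apart from the other 3 AL mice, yet those 3 were also above every EOD mouse. Cxcl16, a chemokine made by microglia and macrophages and 1 of the 10 lower genes of smallest p, was low in all mice, at 4.62, 3.42, 3.43 and 4.04 CPM in AL and 2.01, 2.28, 2.13 and 1.93 CPM in EOD mice (log2 fold change −0.90 ± 0.23).

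Further members, named after their values were seen, span the surface receptors of this state. Trem2, the lipid-sensing receptor through which microglia enter it, was at 14.9, 13.8, 15.6 and 18.9 CPM in AL and 11.2, 12.9, 11.6 and 11.3 CPM in EOD mice. The log2 fold change of Trem2 was −0.44 ± 0.13, and that of its signalling adaptor Tyrobp was −0.33 ± 0.12. Trem2 was highest in old AL mouse 4, and its log2 fold change was −0.33 without that mouse. Without old AL mice 3 and 4, Trem2 had −0.29 and Tyrobp −0.24. The pattern recognition receptor Clec7a had −0.68 ± 0.23, the protease inhibitor Cst7 −0.93 ± 0.32 and the integrin Itgax −0.73 ± 0.30. Without old AL mice 3 and 4 these were −0.55, −0.97 and −0.87. Apoe, the main lipid carrier of the brain, is made largely by astrocytes and had a log2 fold change of −0.18 ± 0.10, which was −0.01 without old AL mice 3 and 4.

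Genes of homeostatic microglia, several of which are known to fall when microglia take up the damage-associated state, were also measured. The median log2 fold change of 15 homeostatic microglia genes was −0.02, 9 were below 0, and their summed level was 606 to 664 CPM in old AL and 576 to 637 CPM in old EOD mice. The purinergic receptor P2ry12 (log2 fold change 0.19 ± 0.09), the fractalkine receptor Cx3cr1 (0.06 ± 0.09) and Tmem119 (0.02 ± 0.17) are defining members. Fcrls (−0.26 ± 0.11) and the phagocytic receptor Mertk (−0.25 ± 0.12) had the smallest p of the list. All 7 tested genes of MHC class II presentation, which display antigen to CD4 T cells, were below 0, with a median of −0.34. Ctss, the protease that trims the invariant chain, had a log2 fold change of −0.19 ± 0.08, H2-DMa had −0.30 ± 0.14, and the invariant chain Cd74 had −0.48 ± 0.22. This median was −0.15 without old AL mouse 3 and −0.06 without old AL mice 3 and 4, and no member then had an unadjusted p under 0.05. MHC class I presentation had a median of −0.03 over 16 genes, led by the immunoproteasome subunit Psmb10 (−0.34 ± 0.13) and H2-T23 (−0.26 ± 0.14). The 28 interferon-stimulated genes had a median of 0.003 and 0 members at an unadjusted p under 0.05 in either direction, with Usp18 at −0.43 ± 0.24 and Ifit3 at 0.27 ± 0.16.

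**Figure D3:**
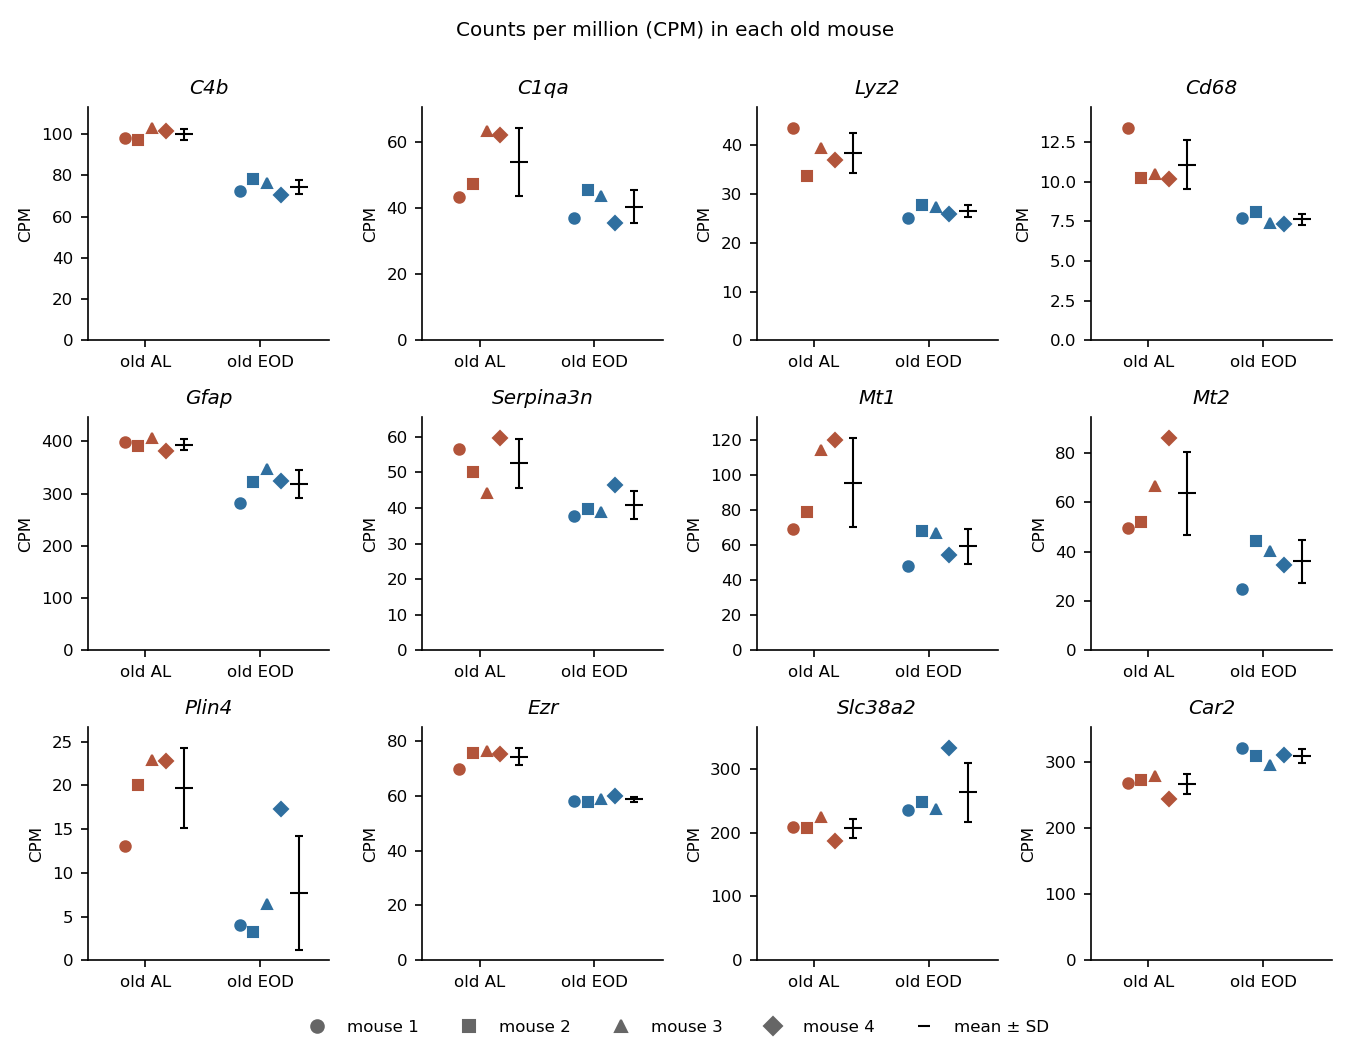
CPM of 12 genes in each old mouse (linear axes from 0), with old AL in red, old EOD in blue, symbols by mouse number and the mean ± SD of each group in black. The groups do not overlap for C4b, Lyz2, Cd68, Gfap, Mt1, Mt2, Ezr, Slc38a2 and Car2, and old AL mice 3 and 4 hold the highest C1qa and Mt1 values.

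Among astrocyte genes, Gfap (chromosome 11, 102887336 to 102900912), the filament protein that astrocytes increase when reactive, was lower in every EOD mouse. Its level was 398, 391, 406 and 381 CPM in old AL and 283, 322, 348 and 325 CPM in old EOD mice (log2 fold change −0.30 ± 0.07, edgeR adjusted p = 0.682). It did not depend on old AL mice 3 and 4, since the log2 fold change without them was −0.30. The protease inhibitor Serpina3n, another gene of reactive astrocytes, had 56.6, 50.0, 44.2 and 59.6 CPM in AL and 37.8, 39.7, 38.9 and 46.6 CPM in EOD mice, the ranges overlapping by EOD mouse 4 and AL mouse 3 (log2 fold change −0.38 ± 0.10). Of the 17 tested reactive astrocyte genes, 3 were lower (2.56% of all genes) and 0 higher (1.45%) at an unadjusted p under 0.05, and the median was −0.14. In the 15 homeostatic astrocyte genes the median was −0.06, with the neurotensin receptor Ntsr2 at −0.29 ± 0.11 and the potassium channel Kcnj10 at 0.13 ± 0.06. The cytoskeletal linker Ezr, which in the brain is found in fine astrocyte processes, varied little within each group, at 69.6, 75.5, 76.4 and 75.2 CPM in AL and 58.1, 57.8, 58.9 and 59.7 CPM in EOD mice (log2 fold change −0.34 ± 0.07). Acot11, an acyl-CoA thioesterase that releases free fatty acids from coenzyme A, was at 65.2, 67.6, 71.0 and 70.2 CPM in AL and 48.2, 53.7, 56.4 and 51.1 CPM in EOD mice (−0.39 ± 0.08). Acer2, a ceramidase of the Golgi, had a log2 fold change of −0.62 ± 0.15, and Wbp1 had −0.46 ± 0.12.

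The metallothioneins, small metal-binding proteins that astrocytes express strongly and that glucocorticoids and metals induce, were among the 10 lower genes of smallest p. Mt1 and Mt2 are neighbours on chromosome 8 (94179089 to 94180325 and 94172618 to 94173567). Mt2 was at 49.4, 52.1, 66.7 and 85.8 CPM in old AL and 24.7, 44.4, 40.4 and 34.6 CPM in old EOD mice (log2 fold change −0.83 ± 0.17). Mt1 was at 69.0, 78.9, 114 and 120 CPM in AL and 47.9, 68.2, 66.8 and 54.1 CPM in EOD mice (log2 fold change −0.69 ± 0.15). Neither gene overlapped between the groups, but both were highest in old AL mice 3 and 4. Without old AL mouse 4 the log2 fold changes were −0.63 for Mt2 and −0.55 for Mt1, and without old AL mice 3 and 4 they were −0.50 and −0.32. Because both genes differed together, the 250 bases before each RefSeq start (GRCm38.p6, forward strand, chr8:94178839-94179088 for Mt1 and chr8:94172368-94172617 for Mt2) are shown, with capitals for each match to the core of the metal response element, TGCNCNC, on either strand.
Mt1: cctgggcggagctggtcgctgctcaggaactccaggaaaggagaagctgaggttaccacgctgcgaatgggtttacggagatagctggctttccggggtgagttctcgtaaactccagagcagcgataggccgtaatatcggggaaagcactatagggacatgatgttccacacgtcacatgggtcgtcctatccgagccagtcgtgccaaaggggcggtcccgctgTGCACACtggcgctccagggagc
Mt2: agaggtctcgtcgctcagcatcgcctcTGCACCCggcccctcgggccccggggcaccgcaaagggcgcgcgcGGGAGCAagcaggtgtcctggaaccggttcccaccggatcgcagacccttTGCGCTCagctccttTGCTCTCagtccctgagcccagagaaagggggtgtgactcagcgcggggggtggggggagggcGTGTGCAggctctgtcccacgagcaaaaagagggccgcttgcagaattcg
The Mt2 window held 5 matches, none overlapping another, and 0.344% of 32851 RefSeq promoter windows of this length held as many. The Mt1 window held 1 match, and 44.4% of the windows held at least 1. The windows end at the annotated starts, and the starts used in these brains were not measured. Sequence past these starts was not searched, so the counts do not compare all metal response elements of Mt1 and Mt2.

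The metallothioneins belong to a list of 23 genes known to respond to glucocorticoids or fasting. In old mice, 20 of the 23 were below 0, and 8 of them had an unadjusted p under 0.05 (2.56% of all genes), with none in the other direction (1.45%). The median log2 fold change was −0.21. The median was −0.18 without old AL mouse 4 and −0.11, with 5 members at that p (2.27% of all genes), without old AL mice 3 and 4. It was −0.14 without old AL mouse 3, −0.34 without old AL mouse 2 and −0.40 without old EOD mouse 4. Plin4, which coats lipid droplets and is named after its values were seen, had the largest difference of the list, from 13.1 to 22.9 CPM in the 4 AL mice against 4.03, 3.20, 6.40 and 17.3 CPM in EOD mice. The log2 fold change was −1.34 ± 0.35, and a single EOD mouse, mouse 4, reached the AL range. Leaving that mouse out gave −2.10 and an edgeR adjusted p of 0.000642, the only call of edgeR's quasi-likelihood test in any fit that left out 1 of the 8 mice. Angptl4, an inhibitor of lipoprotein lipase, was near the limit of the counts, at 1.999, 2.89, 3.81 and 1.77 CPM in AL and 1.59, 0.685, 1.58 and 1.35 CPM in EOD mice (log2 fold change −0.91 ± 0.33). Hif3a, a hypoxia-inducible factor that glucocorticoids raise, had −0.78 ± 0.29, the sulfotransferase Sult1a1 had −0.60 ± 0.21, and the cell cycle inhibitor Cdkn1a had −0.47 ± 0.18, which was −0.25 without old AL mouse 3 and −0.65 without old AL mouse 4. Classical glucocorticoid targets had unadjusted p above 0.05, among them Tsc22d3 (−0.32 ± 0.18), Zbtb16 (−0.23 ± 0.14), Fkbp5 (−0.18 ± 0.15) and Sgk1 (−0.21 ± 0.27). The fasting-induced kinase Pdk4 had 0.14 ± 0.16, and Txnip, an inhibitor of glucose uptake, was at 34.3 ± 3.60 CPM in old AL and 32.5 ± 4.29 CPM in old EOD mice (SD, n = 4 each).

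**Figure D4:**
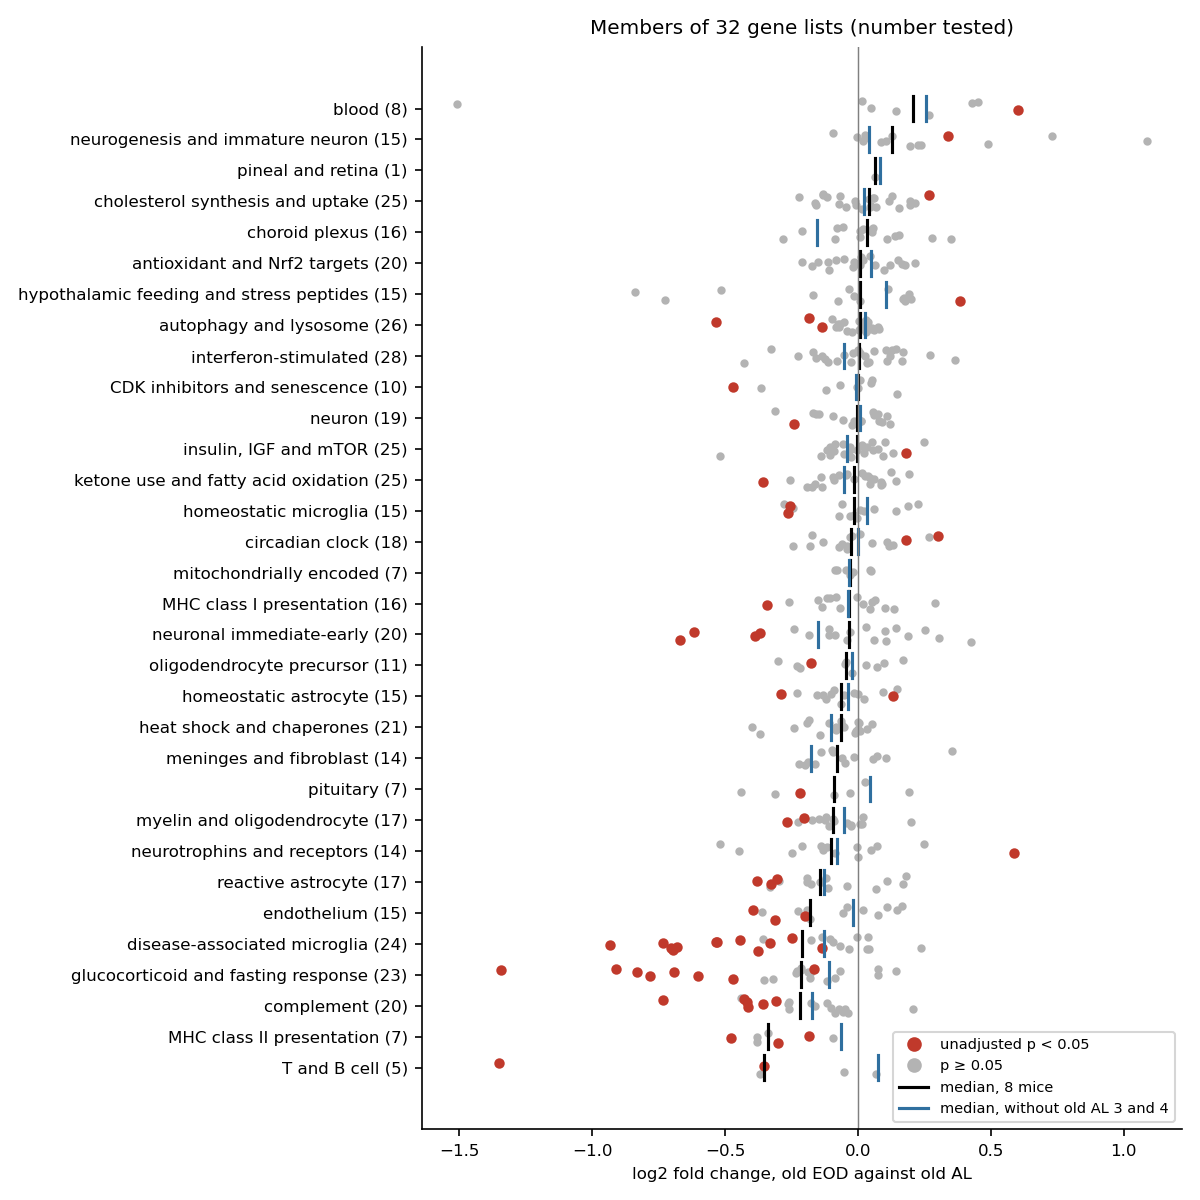
Log2 fold change (x axis) of the tested members of 32 gene lists, with red points for an unadjusted p under 0.05, black bars for the list median over the 8 mice and blue bars for the median without old AL mice 3 and 4. The complement, disease-associated microglia and glucocorticoid lists have most red points on the negative side, and the neuron and interferon lists lie around 0.

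The 10 higher genes of smallest p were a mixed group, with log2 fold changes from 0.22 to 0.72 and adjusted p of 0.994 in each case. Slc38a2, a transporter of neutral amino acids that starvation of amino acids induces, was at 209, 207, 224 and 187 CPM in old AL and 235, 247, 237 and 332 CPM in old EOD mice (0.35 ± 0.10), with EOD mouse 4 far above the other EOD mice. Car2, the carbonic anhydrase of oligodendrocytes, was at 269, 273, 279 and 245 CPM in AL and 321, 310, 296 and 311 CPM in EOD mice (0.22 ± 0.06). Hpgd, which inactivates prostaglandins, had 6.50, 8.29, 5.71 and 6.74 CPM in AL and 10.4, 9.02, 10.5 and 9.36 CPM in EOD mice (0.52 ± 0.15). The groups were separate for all of these by the rule that chose them, and 1.22% of tested genes were higher in every EOD mouse than in every AL mouse. Sltm (0.28 ± 0.07), Dr1 (0.25 ± 0.07) and Senp7 (0.25 ± 0.08) encode nuclear proteins, Ttc8 (0.38 ± 0.12) and Fgfr1op (0.36 ± 0.11) proteins of cilia and centrosomes, and Cybrd1 (0.72 ± 0.22) a ferric reductase. The remaining gene was Hbb-bt, a beta globin chain of red cells, with a log2 fold change of 0.60 ± 0.18. The summed level of 11 blood genes was 197 to 215 CPM in AL and 212 to 257 CPM in EOD mice, and the part of blood left in the tissue was not tested. Globin paralogs can share reads.

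Neuronal genes were centred on 0. The 19 tested neuron genes had a median log2 fold change of −0.002, 10 below 0 and 9 above, and their sum was 10487 to 11391 CPM in AL and 10519 to 11775 CPM in EOD mice. The dopamine signalling protein Ppp1r1b had −0.24 ± 0.11 and the dopamine receptor Drd2 −0.31 ± 0.17, and the latter was 0.01 without old AL mice 3 and 4. Genes induced within minutes of neuronal activity had 4 of 20 members lower (2.56% of all genes) and 0 higher (1.45%) at an unadjusted p under 0.05. Their median of −0.04 had no stable sign, being −0.20 without old AL mouse 4 and 0.13 without old AL mouse 1, where 6 of 20 were below 0. Nptx2, an activity-induced synaptic pentraxin, was at 33.7, 43.0, 49.3 and 36.7 CPM in AL and 32.7, 32.8, 28.9 and 30.7 CPM in EOD mice (−0.37 ± 0.11), and Npas4 had −0.62 ± 0.23. Genes of immature neurons had a median of 0.13 over 15 tested members, 13 of them above 0. Calb2, the calcium-binding protein calretinin, was at 58.0, 84.3, 78.5 and 62.3 CPM in AL and 91.7, 82.1, 95.7 and 86.2 CPM in EOD mice (0.34 ± 0.10), the ranges overlapping, and Igfbpl1 had 0.73 ± 0.37. Mature interneurons also express Calb2, and the median was 0.04 without old AL mice 3 and 4.

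Myelin and oligodendrocyte genes had a median of −0.10, with 13 of 17 below 0. Mobp, a protein of compact myelin, was at 951, 913, 1001 and 954 CPM in old AL and 748, 771, 749 and 905 CPM in old EOD mice (−0.27 ± 0.07), without overlap but with EOD mouse 4 close to the AL mice. The median of the list was −0.04 without that mouse and −0.05 without old AL mouse 3. The tight junction protein Cldn11 had −0.20 ± 0.08. In the 11 tested precursor genes, Bcas1 (−0.18 ± 0.07) and Cspg4 (−0.30 ± 0.16) had the smallest p.

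Lists of pathways often discussed with fasting mostly had medians near 0. The 25 tested genes of ketone use and fatty acid oxidation had a median of −0.02, with the mitochondrial carrier Ucp2 at −0.36 ± 0.12 and Etfdh at 0.14 ± 0.08. The 25 genes of insulin, IGF and mTOR signalling had a median of −0.005, with the ribosomal S6 kinase Rps6kb1 at 0.18 ± 0.08 and Igf1 at 0.25 ± 0.15. The 25 cholesterol synthesis and uptake genes had a median of 0.04, with Lss (0.27 ± 0.10) and Nsdhl (0.20 ± 0.09), both enzymes of the pathway, leading. Among 18 clock genes the median was −0.03, with 2 higher (1.45% of all genes) and 0 lower (2.56%) at an unadjusted p under 0.05. The repressor Cry1 was at 22.4, 27.8, 26.3 and 26.4 CPM in AL and 29.9, 35.4, 31.0 and 30.7 CPM in EOD mice (0.30 ± 0.10), without overlap. The output factor Tef had 0.18 ± 0.07. In young mice the log2 fold change of Cry1 was 0.49 ± 0.14. Chaperone genes (median −0.06, with Sdf2l1 at −0.40 ± 0.28 and Creld2 at −0.24 ± 0.20), antioxidant genes (0.01, with Gsta4 at 0.18 ± 0.08 and Gclm at 0.15 ± 0.08) and the 7 tested mitochondrially encoded genes (−0.03, with mt-Co1 at −0.09 ± 0.07 and mt-Nd2 at −0.08 ± 0.11) had 0 members at an unadjusted p under 0.05. The chaperone median was −0.12 without old AL mouse 4, −0.10 without old AL mice 3 and 4 and 0.03 without old AL mouse 1. Autophagy and lysosome genes had a median of 0.006 over 26 members, and the 3 that were lower at that p, Cd68, Ctss and Ctsd, are also on the microglia or antigen presentation lists. Of the hypothalamic peptides, thyrotropin-releasing hormone (Trh) had 0.38 ± 0.15 and neurotensin (Nts) −0.17 ± 0.13. The 14 tested genes of neurotrophins and their receptors had a median of −0.10, with 10 below 0. Of the CDK inhibitors, Cdkn2d had 0.15 ± 0.10 and Cdkn1a was highest in old AL mouse 3, at 34.3 CPM against 14.9 to 22.1 CPM in the other 3 AL mice and 15.1 to 18.4 CPM in EOD mice.

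Lists of tissues and cells that a dissection can carry along varied between mice. Choroid plexus genes summed to 1198 to 2036 CPM in AL and 1266 to 2165 CPM in EOD mice, with old AL mouse 4 lowest, and their median was 0.04 (Otx2 0.28 ± 0.20, Kcne2 −0.28 ± 0.27), which was −0.14 without that mouse. Meningeal and fibroblast genes summed to 870 to 1306 and 877 to 1092 CPM, with a median of −0.08 (Ptgds −0.20 ± 0.10, Col3a1 0.35 ± 0.28) that was −0.19 without old AL mouse 4, with 4 of 14 lower at an unadjusted p under 0.05 (2.57% of all genes), and 0.01 without old AL mouse 1. Endothelial genes summed to 584 to 651 and 543 to 608 CPM, with a median of −0.18 (Vwf −0.40 ± 0.15, Flt1 −0.20 ± 0.08) that was −0.08 without old AL mouse 3 and −0.02 without old AL mice 3 and 4. The pituitary list summed to 831 to 1959 CPM in AL and 800 to 872 CPM in EOD mice, and its tested members were led by Nnat (−0.22 ± 0.08). In the EOD mice 7 of its 22 genes had no count and Gh had at most 5 counts. The sums there thus came from other members, among them Chga, Chgb and Nnat, and do not measure pituitary tissue. The pineal and retina list summed to at most 3.47 CPM in any old mouse, and its only tested gene was Sag (0.06 ± 0.28). Among the lymphocyte genes, the immunoglobulin light chain Igkc was at 1.499, 6.05, 5.71 and 3.28 CPM in AL and 1.51, 0.685, 2.41 and 1.54 CPM in EOD mice (−1.35 ± 0.39), and the heavy chain Ighm had −0.35 ± 0.12. The neutrophil gene S100a9 had −1.51 ± 0.77 and reached 9.33 CPM only in old AL mouse 3, and without that mouse its log2 fold change was 0.05. The part of these cell types in the other results was not tested.

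The diet difference was then compared between ages, to ask whether it is particular to old mice. In the interaction test over all 15 mice (old diet difference minus young diet difference, edgeR's quasi-likelihood test), 0 of 15864 genes were called at FDR under 0.1, with 362 at an unadjusted p under 0.05, and the smallest adjusted p was 0.9998. The young mice share no animal with the old comparison. Of the 388 genes lower in old EOD mice at an unadjusted p under 0.05, 235 were also below 0 in young mice (60.6%, against 50.8% of all genes), and 25 were so at an unadjusted p under 0.05. These 25 are 6.44% of the 388 and 7.12% of the 351 genes lower in young EOD mice, which were 2.31% of those tested. Of the 220 genes higher in old EOD mice, 18 were also higher in young EOD mice at that p, which is 8.18% of the 220 and 6.38% of the 282 (1.86% of those tested). For C4b, the young mice had 16.1 ± 3.44 CPM under AL (SD, n = 4) and 14.9 ± 1.40 CPM under EOD (n = 3), a log2 fold change of −0.11 ± 0.14. C4b was thus several-fold lower in young mice under either diet than in old EOD mice (74.0 ± 3.45 CPM on the same scaling). Trem2 was lower in young EOD mice too (log2 fold change −0.58 ± 0.20, interaction 0.15), whereas its adaptor Tyrobp had 0.15 ± 0.15 in young mice. Of the 24 tested microglia genes known to increase with age and around damage, 11 were below 0 in young mice (median 0.02). The interaction was below 0 in 16 of these 24 genes (median −0.12). At an unadjusted p under 0.05 it was below 0 in 5 (1.23% of all genes) and above 0 in 0 (1.05%). Gfap had −0.18 ± 0.08 in young mice, with an unadjusted interaction p of 0.297 (edgeR), and Lyz2 had 0.06 ± 0.15, with an unadjusted interaction p of 0.00494 (edgeR).

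The glucocorticoid and fasting list was set beside the young mice in the same way. In 10 of its 23 members the interaction was below 0 at an unadjusted p under 0.05 and in none above, against 1.23% and 1.05% of all genes. In young mice 7 of the 23 were higher in EOD (1.86% of all genes) and 0 lower (2.31%) at that p. The median of the list was 0.24, or 0.15 without young AL mouse 3, against −0.21 in old mice. Hif3a was at 5.23 ± 1.44 CPM in young AL, 9.52 ± 2.39 in young EOD, 7.69 ± 1.06 in old AL and 4.42 ± 2.33 CPM in old EOD mice. The interaction for Hif3a was −1.64 (log2, edgeR unadjusted p = 0.00114). Angptl4 was at 1.44 to 2.65 CPM in young AL and 2.67 to 4.47 CPM in young EOD mice, and edgeR's quasi-likelihood test gave its interaction an unadjusted p of 0.00329. Txnip was at 28.3 ± 3.30 CPM in young AL and 44.5 ± 4.37 CPM in young EOD mice, with its old groups as given above. Its interaction had an unadjusted p of 0.000359 (edgeR's quasi-likelihood test). Mt2 was at 55.4 ± 13.96 CPM in young AL and 55.6 ± 9.09 CPM in young EOD mice. Young AL mouse 3 had the highest total count and the fewest genes detected of all 15 mice, and without it 9 of the 23 members had an interaction below 0 and 6 were higher in young EOD mice at that p. Other lists also leaned to 1 side over all 15 mice. The interaction was below 0 in 17 of 17 myelin genes (median −0.20, 2 at that p) and in 20 of 28 interferon-stimulated genes (median −0.27, 1 at that p). It was below 0 in only 4 of 15 immature neuron genes (median 0.27, 0 at that p).

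**Figure D5:**
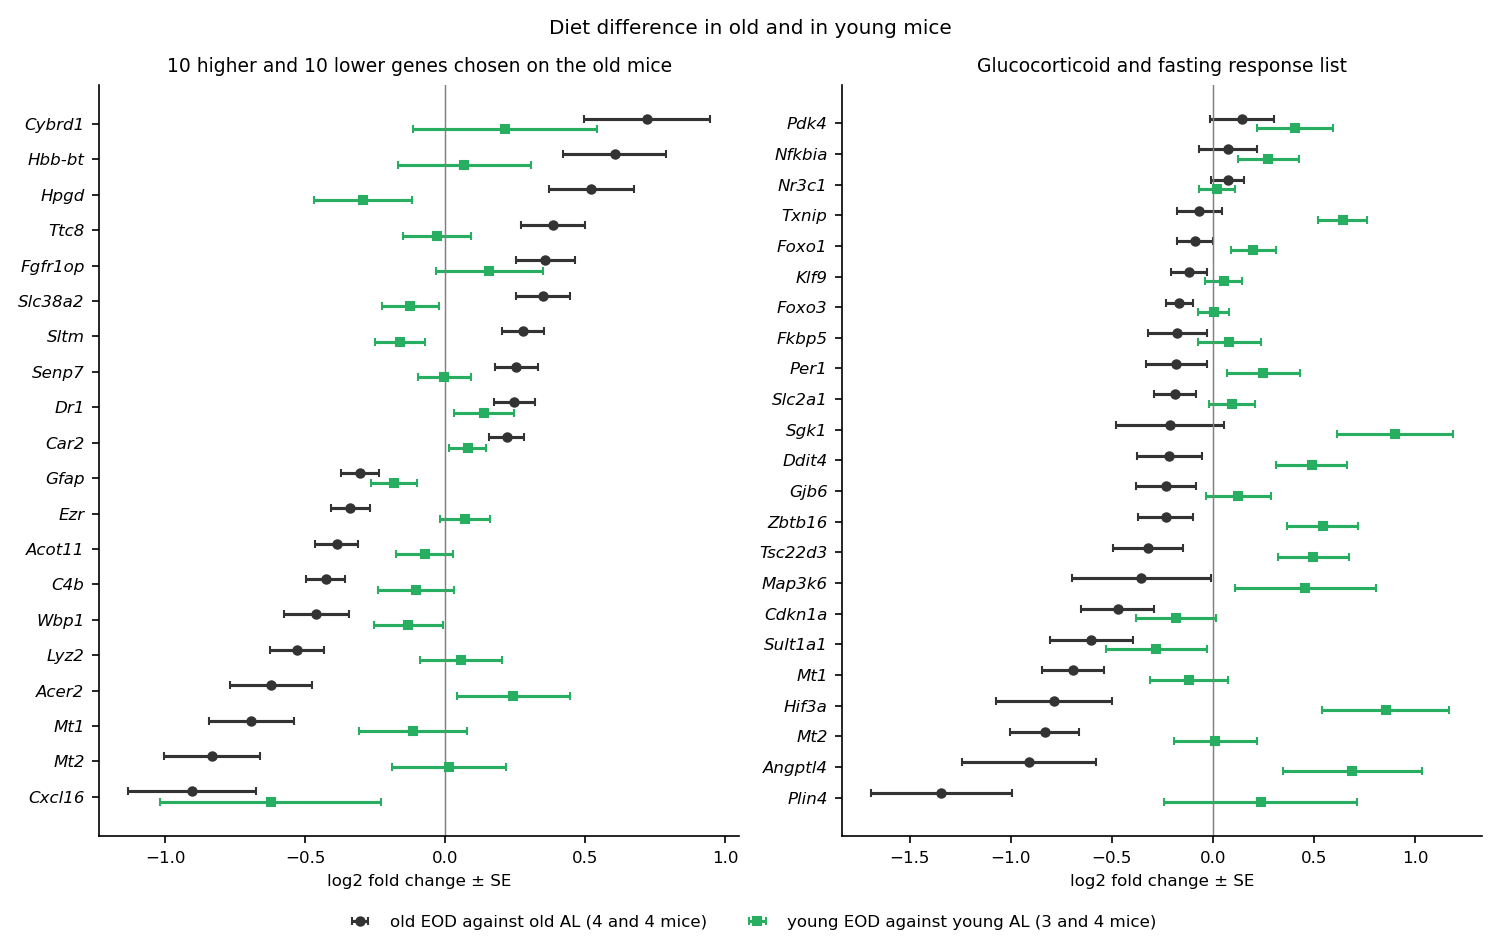
Log2 fold change ± SE of EOD against AL in old mice (black circles) and in young mice (green squares), for the 10 higher and 10 lower genes chosen on the old mice (left) and for the 23 genes of the glucocorticoid and fasting response list (right). On the right, most old values lie below 0 (median −0.21) and most young values above it (median 0.24, or 0.15 without young AL mouse 3).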

How the data were processed

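Whole-brain libraries (HiSeq2000, 50 bp single-end reads) of 8 old and 7 young mice were used. The authors trimmed reads, mapped them with STAR to the GRCm38 genome, assigned them to genes of Ensembl release 79 by featureCounts 1.5.0-p1 (reverse-stranded, primary alignments, mapping quality of at least 5), and they deposited raw counts per gene. CPM values, fold changes and tests were computed here.

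Old EOD and old AL mice were compared with edgeR 4.0.16 (R 4.3.3) on the 8 old mice: filterByExpr, TMM scaling, quasi-likelihood test, Benjamini-Hochberg adjustment over 15164 genes, and FDR under 0.1 as in the study, which used DESeq2. The interaction was fitted on all 15 mice. CPM uses TMM-scaled totals. Each SE was taken from the F statistic, as |log2 fold change| over its root. Mice varied with a common biological coefficient of 0.0956. As alternatives served DESeq2 1.42.0, limma 3.58.1 voom with sample weights, RLE scaling, other filters, sequencing lane, replicate number, more mice in the fit, and leaving out each mouse. The steps were tested on simulated counts. The 12 replicate pairs within groups differed by more than sampling noise (chi-square per degree of freedom 4.55 to 8.32).

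Members, gene lists and tests were chosen with earlier results of these data known. Genes are named if they were among the 10 higher or 10 lower of smallest p whose groups did not overlap and whose mean log2 CPM reached 1, among the 2 of smallest p in each of 32 hand-written lists, or noted earlier (C4b, Lyz2, Gfap, Serpina3n, Txnip, Gh, Prl, Cga). All other named genes were chosen after their values were seen. Lists are described by counts and medians, without a test. Some genes are not reported here.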

Additional observations from a re-analysis of the deposited data

Results flagged for a closer look

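In 234 groups of 4 mice, Dixon's test marked 12 values as standing apart from the other 3 mice of their group. By chance about 1 in 20 groups is marked, but the number found cannot be set against that rate, since some genes were chosen for values already known. Of the 12 values, 8 were in old AL mouse 4, and 7 of the 8 are pituitary genes examined because that mouse was already known to carry such transcripts, so they are a description and no further evidence. Its pituitary transcripts were far above those of the other 3 AL mice, with Gh at 890 CPM, Prl at 72.6, Cga at 49.9, Pomc at 21.6, Fshb at 9.10, Tshb at 6.65 and Pou1f1 at 1.09 CPM. Its choroid plexus gene Otx2 was low instead, at 4.30 CPM against 7.75 to 7.999 CPM. S100a9 was at 9.33 CPM in old AL mouse 3 against at most 1.45 CPM in the other AL mice, and Cd68 was at 13.4 CPM in old AL mouse 1 against 10.2 to 10.5 CPM. In old EOD mouse 4, Slc38a2 was at 332 CPM against 235 to 247 CPM and Mobp at 905 CPM against 748 to 771 CPM.

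Angptl4 was lower in every old EOD mouse than in every old AL mouse (log2 fold change −0.91), and higher in every young EOD mouse than in every young AL mouse. The interaction had an unadjusted p of 0.00329 and did not pass adjustment (edgeR).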

How the results depend on the processing

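The count of 0 genes for the old mice was the same with RLE scaling, all 15 mice, 14 mice without the third young AL mouse, lane as a covariate, at least 10 counts per mouse, an FDR of 0.05 and DESeq2 on 15 mice. It was 68 (12 higher) without a filter on low counts, 5 with DESeq2 on the 8 old mice, 2 with DESeq2 on 14 mice and 1 with voom sample weights. Of the fits added after the data were seen, the count was 38 with no filter and without old AL mouse 4, 2 with DESeq2 without that mouse (Lars2 and C4b) and 0 without old AL mice 3 and 4. The interaction gave 26 genes without a filter and 0 otherwise. The cause was not tested. Leaving out each mouse gave 0 to 1 genes for the old mice and 0 to 0 for the interaction. Genes at an unadjusted p under 0.05 ranged from 441 to 1154, the highest without old AL mouse 1 (608 with all 8 mice).

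Same-numbered EOD and AL mice did not deviate together (correlations −0.142 to −0.0954), so numbers were not taken as pairs. With replicate number as a block, 0 genes were called for the old mice and 0 for the interaction, with 444 and 332 at an unadjusted p under 0.05.

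Over the fits that left out mice (each in turn, or old AL mice 3 and 4 together), the log2 fold change crossed 0 for Sdf2l1 (−0.71 to 0.0084), Drd2 (−0.43 to 0.0080), S100a9 (−1.94 to 0.17), Sag (−0.074 to 0.18), C3 (−0.60 to 0.028) and Sgk1 (−0.56 to 0.22). The pineal and retina list had no tested gene with at least 10 counts in every mouse. Depth limits genes of a few CPM, such as Angptl4, Cxcl16 and Igkc.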

Other observations

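Old AL mouse 4 lay below the other 3 old AL mice for Lars2 and Mir6236. Lars2, annotated as a mitochondrial leucyl-tRNA synthetase, was at 727, 654, 783 and 415 CPM in old AL mice 1 to 4 and at 429, 501, 572 and 562 CPM in the 4 old EOD mice. Its log2 fold change was −0.32 ± 0.14 with all 8 mice and −0.48 without old AL mouse 4. Mir6236 was at 366, 366, 470 and 246 CPM in AL and 198, 278, 311 and 220 CPM in EOD mice, with −0.52 ± 0.15 and −0.67. Both genes were chosen after their values were seen, and whether the reads assigned to them come from these transcripts was not tested.

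A2m, a broad protease inhibitor of plasma, was at 20.6, 15.3, 21.9 and 14.1 CPM in AL and 9.40, 13.6, 12.6 and 11.5 CPM in EOD mice, without overlap (log2 fold change −0.60 ± 0.16), and was also chosen after its values were seen. Il33, an alarmin cytokine that oligodendrocytes and astrocytes express, was at 142 ± 8.68 CPM in old AL and 129 ± 13.8 CPM in old EOD mice (SD, n = 4 each), a log2 fold change of −0.14 ± 0.08.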
